A study of Mus musculus with 8 samples.

Results

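The genes described here are 10 transcripts that are used as readouts of macrophage polarization, taken by symbol from a table of 17492 genes. Nos2, Tnf, Il1b, Il1rn, Ptgs2 and Cd86 are read as signs of classical (inflammatory) activation or its restraint. Arg1, Mrc1 and Chil3 are commonly read with alternative activation. Arg2 is listed with them here as the other arginase gene and is not taken as a marker of that state. All 10 have a row in the table. They were measured by RNA sequencing in macrophages derived from bone marrow of C57BL/6 mice, a common culture model in which marrow precursors mature into macrophages in a dish. The 4 serine/glycine-free libraries came from cells whose medium lacked serine and glycine, and the 4 control libraries came from untreated cells in normal medium. The labels do not state the age or number of the animals, the time in either medium, or whether a polarizing stimulus was added. Nor do they say that the libraries are separate cultures, so p-values measure only the spread between these samples, and this spread may be technical. The series title names macrophage polarization together with IGF1 and p38, and the comparison asks how these markers differ when serine and glycine are withheld.

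Classical activation follows interferon-gamma or microbial ligands that act in part through NF-kappaB, and in mouse macrophages it induces inflammatory cytokines and the inducible nitric oxide synthase. Alternative activation follows interleukin-4 or interleukin-13 through STAT6, and in the mouse it induces arginase 1, the mannose receptor and the chitinase-like protein Ym1. Nitric oxide synthase and arginase draw on the same substrate, arginine, so that their transcripts are often read as a pair.

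The libraries held 17565291 to 18201599 estimated counts, and a count of 0 allows up to 3 counts, or 0.164 to 0.171 CPM (counts scaled by library size after TMM, a correction for composition). Intervals and floors from counts cover counting error only. The first principal component of the tested genes, with 44.9% of the variance, separated the groups. All 12 macrophage markers were detected, and their summed level was 28515 to 29675 TPM (a level scaled by transcript length and library) in control and 29164 to 30496 TPM in serine/glycine-free libraries, most of it from Lyz2 (18212 and 19516 TPM on average). Of the 12, 5 rose and 7 fell, among them Itgam (log2 change -0.61), C1qa (-0.25) and Adgre1 (-0.25), and their part in the results on the members was not tested. The B cell list summed to 73.4 to 84.2 TPM in control and 52.6 to 61.8 TPM without serine and glycine, most of it from Cd79b (77.7 and 57.4 TPM on average). The erythroid or megakaryocyte list summed to 55.3 to 67.5 TPM over all libraries, most of it from Pf4, and the eosinophil list to 5.49 to 7.20 TPM. The lists for T or NK cells, mast cells or basophils, and fibroblasts summed to at most 2.13, 0.26 and 0.88 TPM in any library. In bulk RNA, fewer cells of a type and less RNA per cell cannot be told apart.

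Without serine and glycine, the arginase gene Arg2 rose 1.71-fold, and the mannose receptor gene Mrc1 and the costimulatory ligand gene Cd86 fell to 0.824 and 0.828 of control. Tnf, the most abundant of the 10, fell to 0.954 of control, a call that most left-out libraries removed. Nos2, Il1b, Il1rn, Ptgs2 and Chil3 did not pass, and Arg1 was at the limit of detection in both groups. Of the 9 members that passed the filter on low counts, 1 rose and 3 fell at an adjusted p of 0.05 (edgeR quasi-likelihood test, adjusted over all genes tested). Among all 11700 genes tested 33.2% passed, 15.9% higher and 17.3% lower. A total of 4 of 9 is close to that background. Of the 6 classical members none rose and 2 fell, Tnf and Cd86, with a median log2 change of 0.0027. Of the 3 tested members of the alternative list, Mrc1 fell, Chil3 did not pass, and Arg2, listed there as an arginase gene, rose. The median over all genes tested was 0.0074. Across the libraries left out in turn, 2 to 4 members passed. The lowest number, 2, came without control replicate 3, where only Arg2 and Mrc1 passed.

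**Figure D1:**
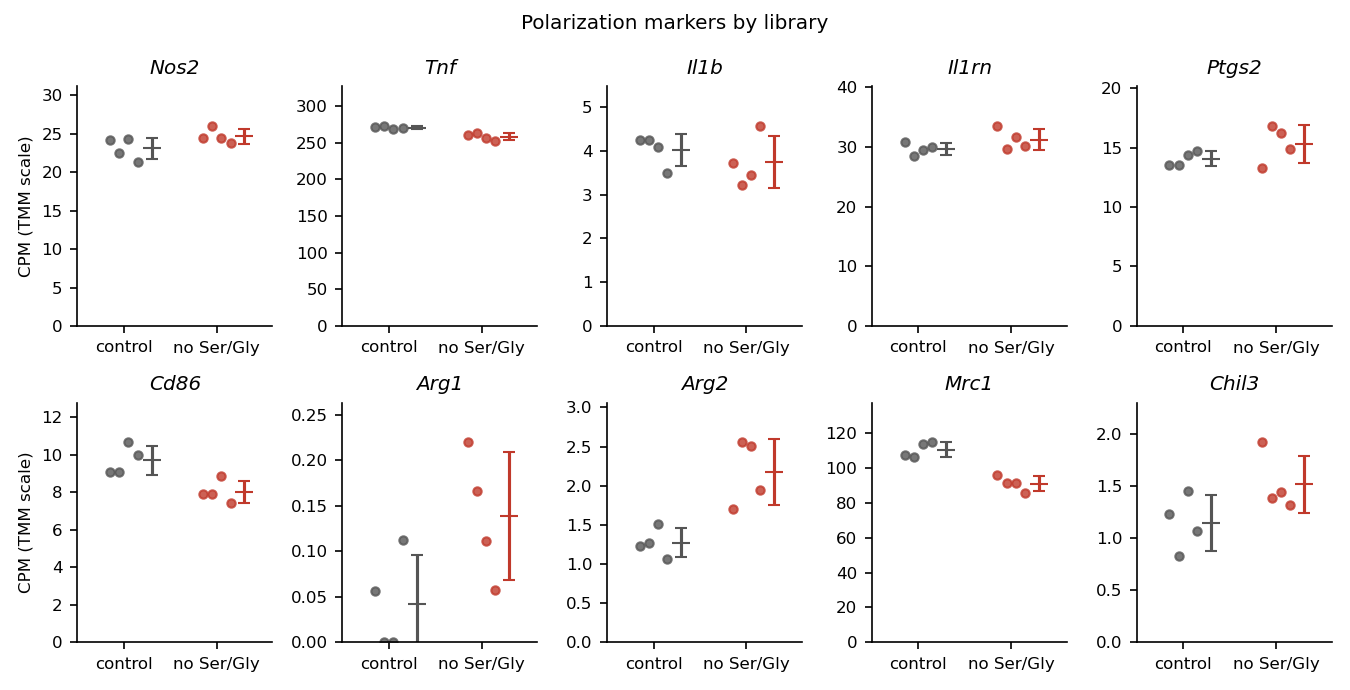
CPM of each of the 10 genes in each library, on axes that start at 0; points are libraries (4 per group), and the bar beside them is the mean with its SD. The 2 groups do not overlap for Tnf, Cd86, Arg2 and Mrc1, and overlap for the other 6 genes. Among all 11700 genes tested, the groups do not overlap for 30.6%.

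The levels of the 10 genes spanned several orders of magnitude, compared per transcript length in the deposited TPM. In control libraries Tnf stood at 327 ± 3.61 TPM (SD, n = 4), followed by Mrc1 at 38.8 ± 1.64, Il1rn at 23.2 ± 0.614 and Nos2 at 10.5 ± 0.623 TPM. Cd86 followed at 7.44 ± 0.670, Il1b at 6.09 ± 0.550, Ptgs2 at 5.92 ± 0.286, Arg2 at 1.82 ± 0.275, Chil3 at 1.495 ± 0.348 and Arg1 at 0.0575 ± 0.0723 TPM. The ranges of the libraries overlapped between neighbours only for Il1b with Ptgs2 and for Arg2 with Chil3. In serine/glycine-free libraries the order was the same at both ends, with Tnf at 305 ± 11.6 and Arg1 at 0.185 ± 0.0957 TPM. There Ptgs2 (6.31 ± 0.724), Cd86 (5.98 ± 0.487) and Il1b (5.53 ± 0.751 TPM) overlapped with one another in sequence, as did Arg2 (3.05 ± 0.631) with Chil3 (1.94 ± 0.361 TPM). Macrophages in both media thus carried far more Tnf than Il1b transcript, with a TPM ratio of 54.1 ± 5.13 in control and 56.1 ± 8.86 without serine and glycine. Il1rn exceeded Il1b 3.84 ± 0.418 and 4.37 ± 0.650 times in TPM.

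**Figure D2:**
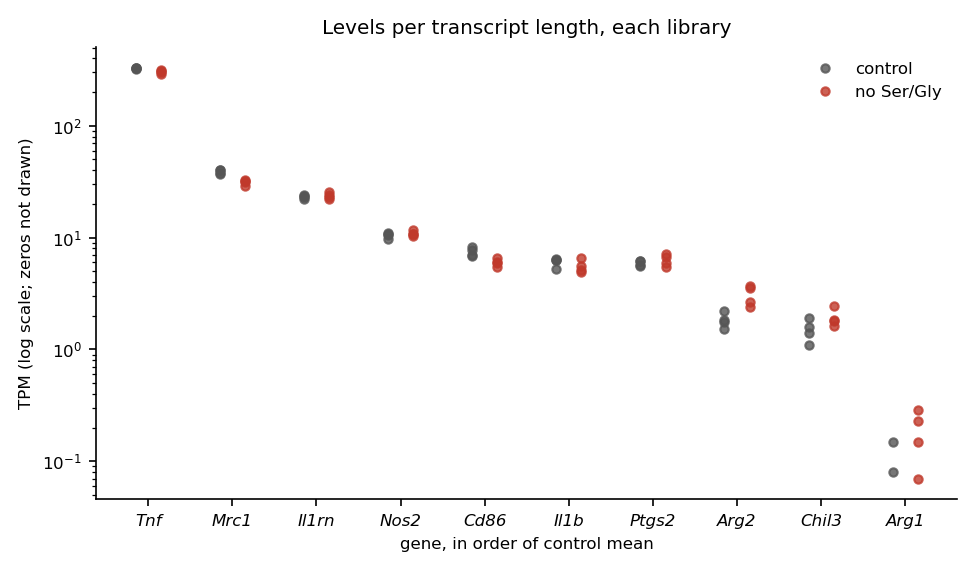
TPM of the 10 genes in each library on a log axis, in the order of the control mean; points are libraries (4 per group), and the 2 control libraries in which Arg1 was at 0 are not drawn. Tnf lies highest at 327 TPM in control, and Arg1 lies lowest.

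Arginine is the shared substrate of Nos2, Arg1 and Arg2. Nos2 (Entrez 18126, chromosome 11, 78920787 to 78960226 on GRCm38.p6, as all coordinates here) encodes the inducible nitric oxide synthase. It stood at 24.2, 22.6, 24.3 and 21.4 CPM in control replicates 1 to 4 and at 24.4, 26.0, 24.4 and 23.8 CPM in serine/glycine-free replicates 1 to 4. The groups overlapped, and Nos2 did not pass (log2 change 0.094, 95% interval -0.018 to 0.21, adjusted p = 0.20). That interval corresponds to between 0.987 and 1.154 of control. It rests on 380 to 469 counts per library.

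Arg2 (Entrez 11847, chromosome 12, 79130788 to 79156301) encodes the mitochondrial arginase, which turns arginine into ornithine and urea. Its counts were 22.02, 23, 27 and 19 in the control replicates and 31, 46, 45 and 34.02 in the serine/glycine-free replicates, and 2 of the 8 were not whole. In CPM these are 1.23, 1.27, 1.51 and 1.07 against 1.70, 2.55, 2.51 and 1.94. Every serine/glycine-free library lay above every control library, as was the case in one direction or the other for 30.6% of tested genes. Arg2 rose by a log2 change of 0.77 (SE 0.19, 95% interval 0.38 to 1.16, adjusted p = 0.00157), and 1.36% of tested genes had a larger log2 change. Few reads carry this value, and the interval runs from 1.30-fold to 2.24-fold. It passed without each of the 8 libraries in turn (log2 change 0.686 to 0.877).

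Arg1 (Entrez 11846, chromosome 10, 24915207 to 24927470) encodes the cytosolic arginase of the liver and of interleukin-4-treated mouse macrophages. It had 1, 0, 0 and 2 counts in the control replicates and 4, 3, 2 and 1 in the serine/glycine-free replicates. The groups overlapped, and the filter on low counts removed the gene. The summed counts were 3 in control (95% Poisson interval 0.619 to 8.77) and 10 without serine and glycine (4.80 to 18.4). The mean difference of 0.0965 CPM had p = 0.0857 in a two-sided exact permutation test, in which the smallest possible p is 0.0286. Without the filter, edgeR gave an adjusted p of 0.221. A difference in Arg1 was not detected at this depth. Between the arginase genes, Arg2 thus held most of the reads in either medium, 91.0 against 3 counts in control and 156 against 10 without serine and glycine.

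The arginine and polyamine list, which holds the transporters, the enzymes that recycle citrulline to arginine and those that turn ornithine into proline or polyamines, had 19 tested genes of 21. Of these 4 rose, 7 fell and 8 did not pass, with a median log2 change of -0.029. Ass1, the argininosuccinate synthase that starts the recycling of citrulline to arginine, rose from 70.4 ± 2.42 to 110 ± 2.71 CPM (mean ± SD of 4; log2 change 0.64, SE 0.035, adjusted p = 2.2e-19). Odc1, the ornithine decarboxylase that opens polyamine synthesis, rose from 322 ± 4.16 to 408 ± 6.02 CPM (log2 change 0.34, adjusted p = 3.7e-15). Oat, which takes ornithine toward proline and glutamate, fell from 132 ± 1.93 to 116 ± 2.86 CPM (-0.18, adjusted p = 5.8e-06). Slc7a1, a cationic amino acid transporter, fell from 58.7 ± 2.02 to 51.7 ± 0.569 CPM (-0.18, adjusted p = 0.000233). Slc7a2, the transporter known for inducible arginine uptake in mouse macrophages, had 36 counts in control and 57 without serine and glycine and did not pass (0.65, adjusted p = 0.0895). Amd1, an enzyme of polyamine synthesis, changed by -0.18, with non-whole counts in all 8 libraries, so that its level is uncertain. Gch1, the enzyme that opens the synthesis of the nitric oxide synthase cofactor, did not pass (-0.036, adjusted p = 0.656).

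Tnf (Entrez 21926, chromosome 17, 35199367 to 35202007) encodes tumour necrosis factor. It stood at 271, 273, 269 and 270 CPM in the control replicates and at 261, 263, 256 and 253 CPM in the serine/glycine-free replicates. The groups did not overlap, and the distance between the lowest control and the highest serine/glycine-free library was small beside the level. Tnf fell by a log2 change of 0.068 (SE 0.026, adjusted p = 0.0378). The call was lost when any library other than serine/glycine-free replicate 2 was left out, with adjusted p from 0.0524 to 0.0936 in those 7 fits, and over all 8 fits the log2 change lay between -0.077 and -0.057. Scaling by library size alone also removed it (adjusted p = 0.0830).

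The proximal promoters of Tnf and Mrc1 are shown because both genes fell and both have an entry in the RefSeq-derived table of promoters, as have 6 of the 10 members. Each window runs from 250 bases before to 50 bases after the annotated start on GRCm38.p6, in the direction of transcription, with capitals for the PU.1 core (GAGGAAG) and the TATA box (TATAAA) on either strand. PU.1 is a lineage factor of macrophages. The windows are chr17:35201958-35202257 on the minus strand and chr2:14229164-14229463 on the plus strand.
Tnf promoter: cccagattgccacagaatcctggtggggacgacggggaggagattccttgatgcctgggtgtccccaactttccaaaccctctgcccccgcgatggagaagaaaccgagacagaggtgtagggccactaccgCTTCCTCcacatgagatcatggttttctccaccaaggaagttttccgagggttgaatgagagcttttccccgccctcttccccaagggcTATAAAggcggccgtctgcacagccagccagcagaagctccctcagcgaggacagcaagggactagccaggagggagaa
Mrc1 promoter: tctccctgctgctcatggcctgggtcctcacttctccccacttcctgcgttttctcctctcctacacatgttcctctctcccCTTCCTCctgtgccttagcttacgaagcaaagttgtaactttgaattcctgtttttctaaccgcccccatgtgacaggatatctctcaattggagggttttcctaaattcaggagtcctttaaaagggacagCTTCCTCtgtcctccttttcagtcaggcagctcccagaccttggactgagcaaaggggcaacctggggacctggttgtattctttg
The PU.1 core matched at -118 in Tnf and at -168 and -36 in Mrc1, counted from the start site, each time on the reverse strand as CTTCCTC. The TATA box matched at -29 in Tnf and not in the Mrc1 window. Among 8 windows of the members, 2 held the PU.1 core, those of Tnf and Mrc1, and 4 held the letters of the TATA box. Those letters began at -29 in Tnf and -31 in Il1b. They lay at the start site itself in the other windows, at -3 in Chil3 and at 15 on the reverse strand in Il1rn. Of 32851 promoter windows of this length, 13.6% held the PU.1 core and 13.6% the TATA box. An AP-1 motif (TGANTCA, in 7.81%) matched neither the Tnf nor the Mrc1 window. These motifs were chosen for display after others had been searched in the same windows, no motif overlapped another, and a match describes letters only.

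Tnfrsf1a and Tnfrsf1b encode the receptors of tumour necrosis factor. Tnfrsf1b rose from 633 ± 11.1 to 749 ± 6.36 CPM (mean ± SD of 4; log2 change 0.24, SE 0.023, adjusted p = 7.1e-12). Tnfrsf1a changed from 170 ± 3.48 to 161 ± 4.14 CPM (-0.082, adjusted p = 0.0250). Leaving out serine/glycine-free replicate 2 (adjusted p = 0.0787) or 3 (0.0936), or control replicate 1 (0.0913) or 2 (0.0623), removed the Tnfrsf1a call. Adam17, the protease that sheds the membrane-bound cytokine and its receptors, rose (0.13, adjusted p = 5.7e-05). Zfp36, which encodes tristetraprolin, a protein that destabilizes Tnf mRNA, stood at 122 ± 2.87 and 122 ± 3.25 CPM (log2 change -0.0043, adjusted p = 0.938). Birc3, an inhibitor of apoptosis downstream of the receptors, fell (-0.23, adjusted p = 3.7e-08). Zfp36l1, a relative of Zfp36, changed by -0.13 (adjusted p = 0.00994), a call lost without control replicate 3 (adjusted p = 0.0824). Of the 18 genes of the TNF system, all tested, 2 rose, 3 fell and 13 did not pass, with a median log2 change of 0.015.

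Il1b (Entrez 16176, chromosome 2, 129364569 to 129371164) encodes interleukin-1 beta, which caspase-1 cleaves to its active form. Its counts were 76, 77, 73 and 62 in the control replicates and 68, 58, 62 and 80 in the serine/glycine-free replicates. The highest and the lowest of the 8 libraries were both serine/glycine-free, so the groups overlapped. Il1b did not pass (log2 change -0.10, 95% interval -0.37 to 0.16, adjusted p = 0.584). At this depth the interval runs from 0.775 to 1.12 of control. Il1rn (Entrez 16181, chromosome 2, 24336860 to 24351491) encodes the receptor antagonist that blocks interleukin-1 signalling. It stood at 30.9, 28.4, 29.4 and 30.0 CPM in control and at 33.5, 29.6, 31.6 and 30.1 CPM in the serine/glycine-free replicates. The groups overlapped and Il1rn did not pass (0.073, 95% interval -0.029 to 0.18, adjusted p = 0.283). The promoter table lists 3 start sites for Il1rn, and the values here sum over its transcripts.

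Of 19 genes of the interleukin-1 system, 17 were tested, of which 3 rose, 3 fell and 11 did not pass, with a median log2 change of 0.036. Il1a (log2 change 0.20, adjusted p = 0.474), which encodes the other interleukin-1 agonist, and the receptor gene Il1r1 (0.23, adjusted p = 0.279) did not pass. The decoy receptor gene Il1r2 had at most 1 count in any library. The coreceptor gene Il1rap (-0.16, adjusted p = 0.0717) and Casp1 (0.056, adjusted p = 0.150), the interleukin-1-converting protease, did not pass either. Pycard, which encodes the inflammasome adaptor ASC, fell from 112 ± 3.01 to 78.8 ± 3.28 CPM (mean ± SD of 4; log2 change -0.50, SE 0.035, adjusted p = 5.8e-16). Il18bp, which encodes a soluble inhibitor of interleukin-18, rose from 19.7 ± 1.84 to 33.4 ± 1.16 CPM (0.76, adjusted p = 6.7e-15). The receptor adaptor Myd88 (-0.17, adjusted p = 1.2e-05) and the inhibitory kinase homologue Irak3 (-0.098, adjusted p = 0.00179) fell.

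Ptgs2 (Entrez 19225, chromosome 1, 150100031 to 150108234) encodes the inducible cyclooxygenase, which makes the precursor of prostaglandins and thromboxane. It stood at 13.5, 13.5, 14.4 and 14.7 CPM in control and at 13.3, 16.8, 16.3 and 14.9 CPM in the serine/glycine-free replicates. Serine/glycine-free replicate 1 was the lowest of all 8 libraries and the other 3 lay above every control library. Ptgs2 did not pass (log2 change 0.12, 95% interval -0.022 to 0.27, adjusted p = 0.192). Without serine/glycine-free replicate 1 its log2 change was 0.188 (adjusted p = 0.0455).

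Among the enzymes that work with Ptgs2, Ptges, the inducible prostaglandin E synthase, rose from 5.50 ± 0.511 to 10.7 ± 0.369 CPM (mean ± SD of 4; log2 change 0.95, SE 0.090, adjusted p = 9.2e-12). The thromboxane synthase gene Tbxas1 rose from 67.7 ± 2.62 to 85.6 ± 1.90 CPM (0.34, adjusted p = 2.3e-10). Of the phospholipase genes in the same list, Pla2g7, whose product hydrolyses platelet-activating factor, rose (0.38, adjusted p = 1.4e-16). Pla2g4a, the cytosolic phospholipase gene, fell (-0.14, adjusted p = 0.00155). The constitutive cyclooxygenase Ptgs1 (-0.20, adjusted p = 0.146), the prostaglandin D synthase Hpgds (-0.015, adjusted p = 0.715) and the prostaglandin-degrading Hpgd (0.31, adjusted p = 0.244) did not pass. Alox5, the 5-lipoxygenase of leukotriene synthesis, fell from 18.1 ± 1.28 to 12.9 ± 0.420 CPM (-0.49, adjusted p = 7.3e-08). Ptger4, a prostaglandin E2 receptor gene, changed by -0.14 (adjusted p = 0.00988), a call that leaving out serine/glycine-free replicate 1 (adjusted p = 0.0552) or control replicate 3 (0.0611) removed. Of 23 prostanoid and leukotriene genes, 19 were tested, of which 5 rose, 3 fell and 11 did not pass, with a median log2 change of -0.0091.

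Cd86 (Entrez 12524, chromosome 16, 36568956 to 36666158) encodes a ligand of the T cell receptors CD28 and CTLA-4. Its counts were 162, 165, 190 and 178 in control and 144, 143, 159 and 130 in the serine/glycine-free replicates. In CPM these are 9.06, 9.10, 10.7 and 10.01 against 7.90, 7.94, 8.85 and 7.43, and the groups did not overlap. Cd86 fell by a log2 change of 0.27 (SE 0.087, 95% interval -0.45 to -0.098, adjusted p = 0.0124). The call was lost without control replicate 3, the highest library (log2 change -0.226, adjusted p = 0.0647), and in DESeq2 (adjusted p = 0.0652). Cd80, the other ligand of the same receptors, changed from 15.6 ± 0.577 to 13.8 ± 0.437 CPM (SD, n = 4; -0.18, adjusted p = 0.0335). The Cd80 call was lost when any of 6 libraries was left out (all but serine/glycine-free replicate 4 and control replicate 2), with adjusted p up to 0.0988, and in DESeq2 (adjusted p = 0.131).

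Among the other costimulatory and inhibitory ligands and receptors, Cd274, which encodes the ligand PD-L1, fell from 151 ± 2.004 to 130 ± 2.37 CPM (mean ± SD of 4; log2 change -0.22, adjusted p = 3.9e-08). Vsir, which encodes the checkpoint protein VISTA, fell from 568 ± 6.54 to 449 ± 11.04 CPM (-0.34, adjusted p = 2.3e-15). Havcr2, which encodes TIM-3, rose from 4.96 ± 0.221 to 9.45 ± 0.455 CPM (0.93, adjusted p = 4.7e-11), and Cd276, which encodes B7-H3, from 3.65 ± 0.465 to 6.11 ± 0.693 CPM (0.74, adjusted p = 1.9e-06). Cd40, which encodes the receptor for T cell help, did not pass (0.15, adjusted p = 0.342). Of 12 genes in that list 11 were tested, of which 3 rose, 3 fell and 5 did not pass, with a median log2 change of 0.066.

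Mrc1 (Entrez 17533, chromosome 2, 14229414 to 14332023) encodes the mannose receptor CD206, an endocytic lectin of tissue macrophages. It stood at 107, 106, 114 and 114 CPM in control and at 95.8, 91.1, 91.5 and 85.5 CPM in the serine/glycine-free replicates. The highest serine/glycine-free library lay below the lowest control library. Mrc1 fell by a log2 change of 0.28 (SE 0.035, 95% interval -0.35 to -0.21, adjusted p = 1.7e-08), to between 0.785 and 0.866 of control. It passed in 18 of 18 alternative fits, and over the left-out libraries its log2 change lay between -0.303 and -0.249. The TPM ratio of Mrc1 to Cd86 was 5.23 ± 0.261 in control and 5.25 ± 0.346 without serine and glycine, while both levels fell. Cd86 and Mrc1 are also transcribed in dendritic cells. Of 9 dendritic cell markers 8 were in the table and 2 were tested, of which Batf3 was lower. Their summed level was 14.4 to 17.8 TPM in control and 10.3 to 12.6 TPM without serine and glycine. Most of it came from Batf3 (15.25 and 10.7 TPM on average). The part of this sum in the Mrc1 and Cd86 results was not tested. Flt3, a defining marker of those cells, had at most 4 counts in any library.

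Chil3 (Entrez 12655, chromosome 3, 106147554 to 106167564) encodes the secreted chitinase-like protein Ym1. Its counts were 22, 15, 26 and 19 in control and 35, 25, 26 and 23 in the serine/glycine-free replicates. The groups overlapped, and Chil3 did not pass (log2 change 0.41, 95% interval -0.033 to 0.85, adjusted p = 0.153). At this depth the interval includes both no change and a rise to 1.80-fold. All 8 Chil3 counts were whole, and its close paralog Chil4 had at most 1 count per library. Chil3 is also a marker of monocytes. In a list of 7 monocyte markers, 5 were tested and 4 were lower, Ccr2, F13a1 and Plac8 among them. Without Chil3 that list summed to 8.60 to 10.4 TPM in control and 4.16 to 6.51 TPM without serine and glycine, with at most 3.39 counts of Ly6c2 in any library. Its part in the Chil3 value was not tested.

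The lists hold few other lectins or chitinase-like genes with a measurable level. Of 11 genes only 2 were tested and none passed. Clec10a, a galactose-type lectin gene induced by interleukin-4 in mouse macrophages, stood at 0.880 ± 0.321 and 0.656 ± 0.0834 CPM (SD, n = 4; adjusted p = 0.274). Mrc2, the relative of Mrc1, had 1 to 7 counts per library, and Chil1, a chitinase-like relative of Chil3, had 1 to 5.

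**Figure D3:**
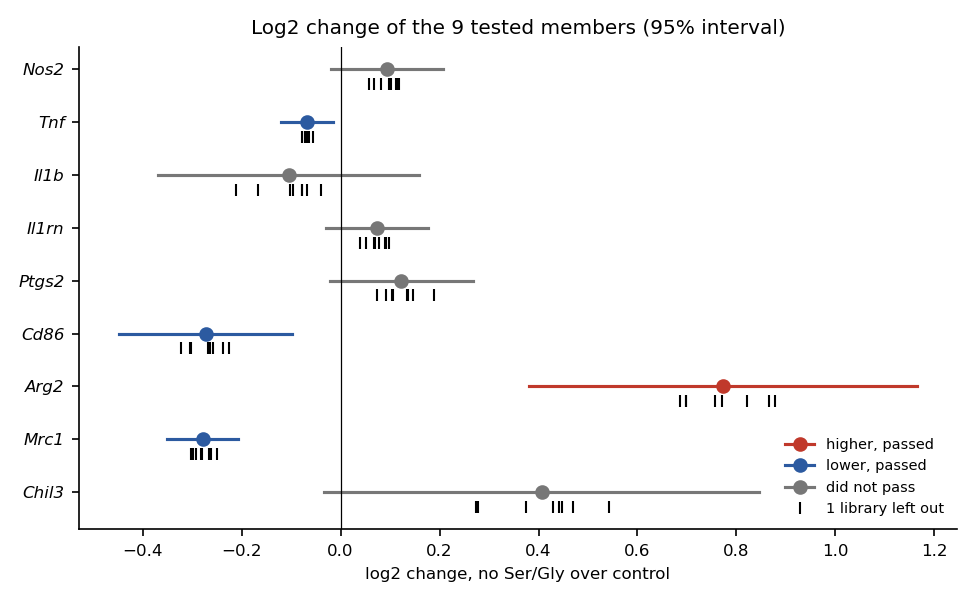
Log2 change of the 9 tested genes, serine/glycine-free over control; points with lines are the estimate and its 95% interval from edgeR, and black ticks under each are the values with 1 library left out. Arg2 lies at 0.77 and Mrc1 and Cd86 at -0.28 and -0.27, while the intervals of Nos2, Il1b, Il1rn, Ptgs2 and Chil3 include 0.

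The next list holds inducers of alternative activation. The receptor gene Il4ra fell from 313 ± 4.81 to 238 ± 3.56 CPM (mean ± SD of 4, log2 change -0.39, SE 0.026, adjusted p = 1.2e-16). Il13ra1, its partner in the receptor that also binds interleukin-13, rose from 3.42 ± 0.428 to 4.84 ± 0.473 CPM (0.50, adjusted p = 0.00149). Stat6, the signal transducer of both cytokines, did not pass (-0.026, adjusted p = 0.468). Klf4, a transcription factor that cooperates with STAT6 in mouse macrophages, changed from 4.86 ± 0.316 to 3.78 ± 0.457 CPM (-0.36, adjusted p = 0.0169). DESeq2 (adjusted p = 0.0910) did not call Klf4, nor did fits without serine/glycine-free replicate 1 (0.0597) or 2 (0.0623) or control replicate 3 (0.0555). Irf4 (-0.54, adjusted p = 0.194, 6 to 21 counts per library) and Pparg (-0.063, adjusted p = 0.664), further transcription factors of alternative activation, did not pass. The histone demethylase gene Kdm6b (-0.65, adjusted p = 4.3e-12) and Stat3 (-0.29, adjusted p = 5.4e-11) fell, and Tgfbr1, a receptor of TGF-beta, rose (0.60, adjusted p = 8.9e-19). Of 19 genes in that list, all tested, 3 rose, 10 fell and 6 did not pass, with a median log2 change of -0.24.

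Upstream of the classical members, the interferon-gamma receptor gene Ifngr1 rose from 150 ± 2.22 to 166 ± 2.99 CPM (mean ± SD of 4; log2 change 0.14, adjusted p = 8.0e-05). Tlr4, the receptor gene for bacterial lipopolysaccharide, did not pass (-0.052, adjusted p = 0.275). Of the NF-kappaB subunits, Nfkb1 fell (-0.12, adjusted p = 0.000653) and Rela did not pass (-0.022, adjusted p = 0.615). The inducible NF-kappaB cofactor gene Nfkbiz (-0.25, adjusted p = 3.3e-12) and the adaptor gene Ticam1 (-0.18, adjusted p = 0.000302) fell. Irf1 did not pass (-0.094, adjusted p = 0.105), but did once serine/glycine-free replicate 4 was left out (adjusted p = 0.0459). Of 23 genes in that list, all tested, 2 rose, 8 fell and 13 did not pass, with a median log2 change of -0.042.

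Other genes that are read as markers of the same states went in both directions. Of 25 further classical markers 19 were tested, of which 7 rose, 6 fell and 6 did not pass, with a median log2 change of 0.099. Acod1, the enzyme that makes itaconate, rose from 214 ± 4.75 to 265 ± 1.65 CPM (mean ± SD of 4; log2 change 0.30, adjusted p = 7.1e-13), and the chemokine Ccl4 rose (0.32). The cytokine signalling inhibitor Socs3 fell (-0.47) and the interferon-induced chemokine Cxcl10 fell from 14.3 ± 1.153 to 9.21 ± 0.498 CPM (-0.64). Of 20 further alternative markers 14 were tested, of which 9 rose, 3 fell and 2 did not pass, with a median log2 change of 0.37. Those with the smallest p, all higher, were Trem2 (0.86), a receptor gene for lipids, Tgm2 (0.84), a transglutaminase gene, Clec7a (0.89), the receptor gene for beta-glucans, and Msr1 (0.46), a scavenger receptor gene. The 3 that fell were Socs1, Il10 and Tgfb1. Ccl17, Ccl22, Ccl24, Flt1, Socs2 and Mgl2 of that list were too low to test, as were Il6, Il12a, Il12b, Il23a and Cxcl9 of the classical list.

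**Figure D4:**
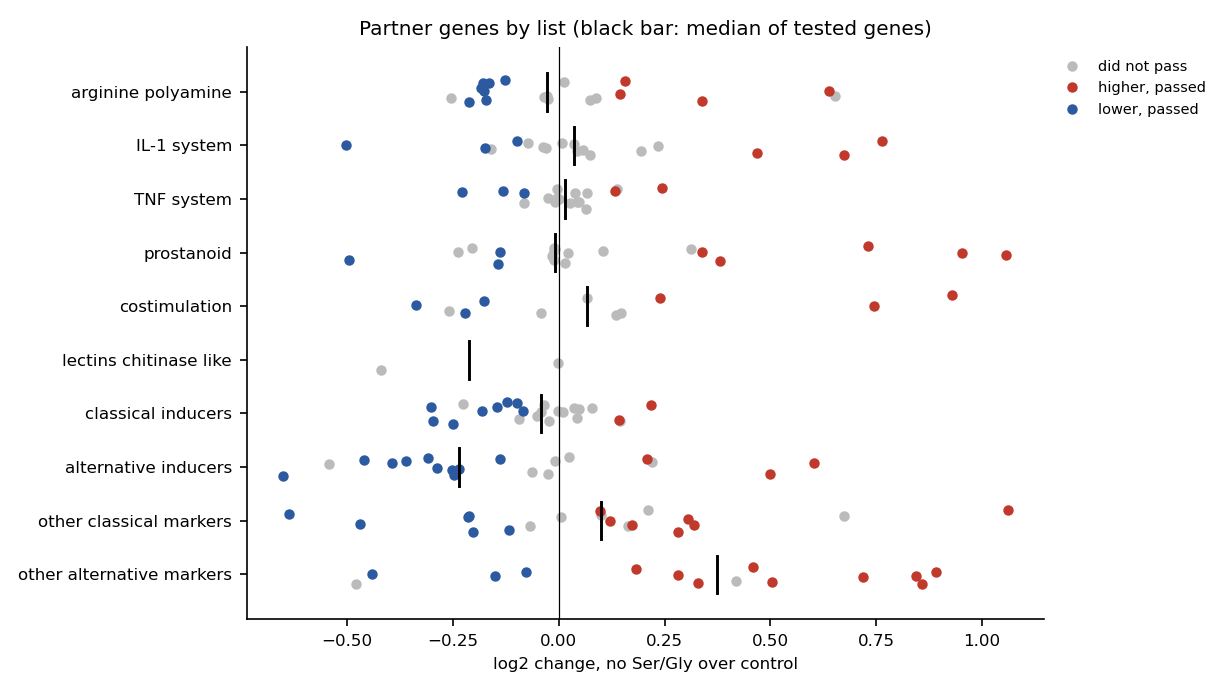
Log2 change of each tested gene in the 10 lists of partner genes, serine/glycine-free over control; each point is a gene, coloured by whether it passed, and black bars are list medians. The median is lowest for the inducers of alternative activation at -0.24 and highest for the further alternative markers at 0.37.

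Within groups the coefficient of variation of Tnf, with 4423 to 4950 counts per library, was 0.621% in control and 1.82% without serine and glycine, where counting error alone gives 1.44% and 1.47%. For Mrc1 the values were 3.85% and 4.69% against 2.25% and 2.48% from counting. For Arg2 they were 14.5% and 19.4% against 21.0% and 16.0%, and for Chil3 23.2% and 18.0% against 22.1% and 19.2%. Of 1472 tested genes with a mean between 1 and 5 CPM, the class of Arg2, Chil3 and Il1b, 21.0% passed, and of 2232 genes at 100 CPM or more, the class of Tnf and Mrc1, 56.8% passed.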

How the data were processed

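Per the file headers, the authors deposited for each of 8 libraries estimated counts, TPM and FPKM per gene. Per the submitters' processing notes, BWA, Bowtie2, RSEM and the build GRCm38.p6 were used, without versions or roles, and per the labels' protocols Trizol was used for extraction and oligo-dT beads for library preparation. The deposited estimated counts, of which 8.06% to 8.47% per library were not whole (tolerance 1e-06), were rounded and tested. The TPM deposited by the authors were used for levels between genes, and the FPKM deposited by the authors only to derive effective lengths. The 6 deposited averages were not used.

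Low genes were removed by filterByExpr (count of 10, total of 15), and the rest were scaled by TMM and compared with edgeR 4.0.16 in R 4.3.3 (robust quasi-likelihood test, 4 libraries against 4, 6 residual degrees of freedom), and p-values of all 11700 genes were adjusted by Benjamini-Hochberg, with a threshold of 0.05. A positive log2 change is higher without serine and glycine, and SE comes from the F statistic. The common coefficient of variation was 2.78%. The member removed by the filter was compared by an exact permutation test. The steps were tested on simulated data.

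The members and the lists of partner genes were chosen with earlier results of these data known, so no list was tested: counts and medians describe them. Of each list the text names genes that act directly with a member, whatever their value, and up to 4 genes with the smallest adjusted p; some listed genes are counted but not reported here by name. Coordinates and promoters come from RefSeq (GRCm38.p6), and all 10 members matched there by Entrez ID. The alternatives were RLE scaling, scaling by total counts, no filter or one at 5 CPM on average, a replicate block, each library left out in turn, DESeq2 1.42.0, limma 3.58.1 (voom, and a trend fit on log2(TPM + 0.1)), a gene length correction (loess per library), unrounded counts and an adjusted p of 0.01.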

Additional observations from a re-analysis of the deposited data

Results flagged for a closer look

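Of 142 groups of 4 libraries screened, over the members and the partner genes named with a CPM value, 5 held a library far from the other 3, and about 5% of groups are flagged by chance. No member was among them. Amd1 in control replicate 1 stood at 341 CPM, with the other 3 at 354 to 355. Zfp36l1 in control replicate 3 stood at 63.3 CPM, with the others at 57.0 to 58.0. Clec10a in serine/glycine-free replicate 3 stood at 0.780 CPM, with the others at 0.603 to 0.629. Nfkbiz in serine/glycine-free replicate 4 stood at 518 CPM, with the others at 526 to 528. Acod1 in control replicate 4 stood at 207 CPM, with the others at 216 to 218.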

How the results depend on the processing

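The sign of all 9 tested members was the same in each of their 17 or 18 alternative fits. Mrc1 passed in 18 of 18 and Arg2 in 17 of 17. With a mean of at least 5 CPM as the filter, Il1b, Arg2 and Chil3 were not tested. Tnf passed in 9 of 18. It was lost by scaling to library size alone (log2 change -0.0589, adjusted p = 0.0830) and with the replicate block (-0.0681, adjusted p = 0.0774). It was also lost in 7 leave-one-out fits (range of all 8 -0.0773 to -0.0566), and the cause was not tested. The fall of Tnf was larger with the length trend removed (-0.104, adjusted p = 0.000384) and in the limma trend fit on TPM (-0.1, adjusted p = 0.0146). Cd86 passed in 16 of 18: it was lost in DESeq2 (-0.278) and in 1 leave-one-out fit (range -0.323 to -0.226). Ptgs2 lay between 0.0743 and 0.188 in leave-one-out fits and passed in 1. A stricter threshold, an adjusted p of 0.01 in the same fit, is not among those fits: Tnf (-0.068) and Cd86 (-0.273) did not pass it and 2 members did, against 2 to 4 in leave-one-out fits. Genes past the threshold numbered 3882, and 3384 to 3760 with a library left out. Same-numbered libraries did not deviate together (correlations -0.0943 to 0.0609, and 1 of 4 correlated best with its own number). This gives no sign of a pairing but cannot exclude one. With the replicate block the calls of Tnf, Tnfrsf1a (adjusted p = 0.0511) and Cd80 (adjusted p = 0.0510) were lost. Genes that had not passed changed sign in Gch1 (-0.0762 to 0.0121 in leave-one-out fits), Zfp36 (0.00472 with library size alone, -0.0178 to 0.0142 in leave-one-out fits) and Tlr4 (0.0163 with the length trend removed). Irf1 passed with the length trend removed (adjusted p = 0.0346) and on TPM (0.0420). Depth limits Arg1, with at most 4 counts in any library.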

Other observations

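Some transcripts outside the members were chosen after their values were seen. In a list of 12 neutrophil markers 2 were tested and both were higher without serine and glycine: S100a8 (log2 change 1.30, adjusted p = 9.0e-06, 9 to 38 counts per library) and Mmp8 (0.57, adjusted p = 5.9e-05). The list summed to 9.61 to 11.6 TPM in control and 17.5 to 21.2 TPM without serine and glycine, while Ly6g, Camp and Elane had at most 2, 1 and 1 counts in any library. In a list of 5 B cell markers, Cd79b was lower (-0.41, adjusted p = 3.6e-07). The monocyte marker Plac8 was lower (-2.24, adjusted p = 0.000105), with 0 to 21 counts per library.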
